A study of Mus musculus with 9 samples.

Results

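Core cardiac transcription factors are the regulators that specify heart muscle and shape its chambers, and 10 of their genes were followed by name through the deposited expression table: *Nkx2-5*, *Gata4*, *Gata5*, *Gata6*, *Hand1*, *Hand2*, *Mef2a*, *Mef2c*, *Isl1* and *Hopx*. All 10 were present among the 14011 genes of the table. RNA had been sequenced from mouse hearts at embryonic day 10.5, in 9 libraries of 6 pooled hearts each, with 3 libraries per genotype and a mixed strain background. Homozygotes were *Ctcf* fl/fl; *Nkx2.5-Cre* embryos, in which both floxed copies of *Ctcf*, the gene of a DNA-binding protein that shapes chromatin loops, are open to deletion. Heterozygotes were *Ctcf* fl/+; *Nkx2.5-Cre*, with a single floxed copy. Controls carried floxed *Ctcf* without Cre. Their genotype is *Ctcf* fl/fl in the sample labels and *Ctcf* fl/+ in the study's text, so the number of floxed copies in the control pools is not settled here. The driver acts in cardiac precursors of the crescent, and cells outside that lineage keep *Ctcf*. It takes its name from *Nkx2-5*, which is taken here as the gene that hosts the Cre insertion, although the study's text does not describe the construct. Any comparison with controls is therefore a comparison with and without the driver, whereas homozygotes and heterozygotes both carry it. No group had the driver without a floxed allele.

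These regulators work as a network in the embryonic heart. NKX2-5 (homeodomain), GATA4, GATA5 and GATA6 (zinc fingers), HAND1 and HAND2 (basic helix-loop-helix) and MEF2A and MEF2C (MADS box) bind DNA and often act together at the same enhancers of muscle and conduction genes. ISL1 marks progenitors of the second heart field that add the outflow tract, right ventricle and parts of the atria. HOPX is a small homeodomain-like protein that does not bind DNA itself and modulates other factors, and its gene is known as a target of NKX2-5.

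The libraries held 4294537 to 11629365 reads over the genes of the table. A normalized value is a gene's reads divided by the effective size of its library, so it compares libraries and not genes of different length. Values are listed in a fixed order: controls of 8457617, 9654014 and 6698891 reads, heterozygotes of 9896345, 7946683 and 4294537 reads, then homozygote replicates 1, 2 and 3. *Ctcf* was 121, 122 and 122 in controls, 101, 94.2 and 97.0 in heterozygotes, and 79.6, 80.0 and 84.7 in homozygotes. The 3 groups did not overlap for the targeted gene, and each step passed the test (limma, Benjamini-Hochberg adjusted p = 2.91e-05 for homozygotes against controls, 0.0097 for homozygotes against heterozygotes and 0.047 for heterozygotes against controls). All 10 cardiomyocyte markers were present. Their sum was 18386 to 21020 in controls, 20712 to 24244 in heterozygotes and 17067 to 20634 in homozygotes, so that the sums of homozygotes overlapped those of controls and lay below those of heterozygotes, where 4 of the 10 markers were called lower and 9 of the 10 estimates were negative. Other cell types did move with genotype. All 9 erythroid genes were higher in homozygotes, where their sum was 57884 to 76509 against 32556 to 47249 in controls and 26152 to 44298 in heterozygotes. Of 8 epicardial markers, 5 were higher in homozygotes (sums of 659 to 725, against 489 to 548 in controls and 517 to 536 in heterozygotes), and of 8 cushion mesenchyme markers 3 were lower (801 to 1060, against 1313 to 1510 and 1223 to 1306). The part of these shifts in the results below was not tested, and in whole hearts fewer cells of a type cannot be told apart from less RNA per cell. The control library of 8457617 reads also stood apart by its liver and endoderm transcripts, which summed to 1092 against 18.0 to 101 in the other 8. Without this library the 4 falls described next remained called. The remaining controls summed to 79.8 and 89.5 for these markers, and homozygotes to 91.5, 18.6 and 101. Heterozygotes summed to 18.0 to 30.0, below every control, and the part of this in the results was not tested.

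Of the 10 genes, 4 fell in homozygotes and none rose. *Nkx2-5*, *Hopx*, *Hand1* and *Mef2c* passed the test against controls (4 of 10 members called at an adjusted p under 0.05, limma), and in each of them every homozygous library lay below every control. Among all 14011 genes, 15.2% were called in this comparison, 8.03% lower and 7.19% higher. The same 4 genes were lower in homozygotes than in heterozygotes, with a background of 13.6% called, 6.7% lower and 6.87% higher. These comparisons share the homozygous libraries and are not independent. In heterozygotes against controls no member was called by limma or by edgeR, 1 had an unadjusted p under 0.05, and DESeq2 called 1, *Nkx2-5* in both cases. Among all genes 0.143% were called there by limma, 1032 of 14011 had an unadjusted p under 0.05 and DESeq2 called 40. The plot of normalized values by library shows the 10 members in all 3 genotypes.

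**Figure D1:**
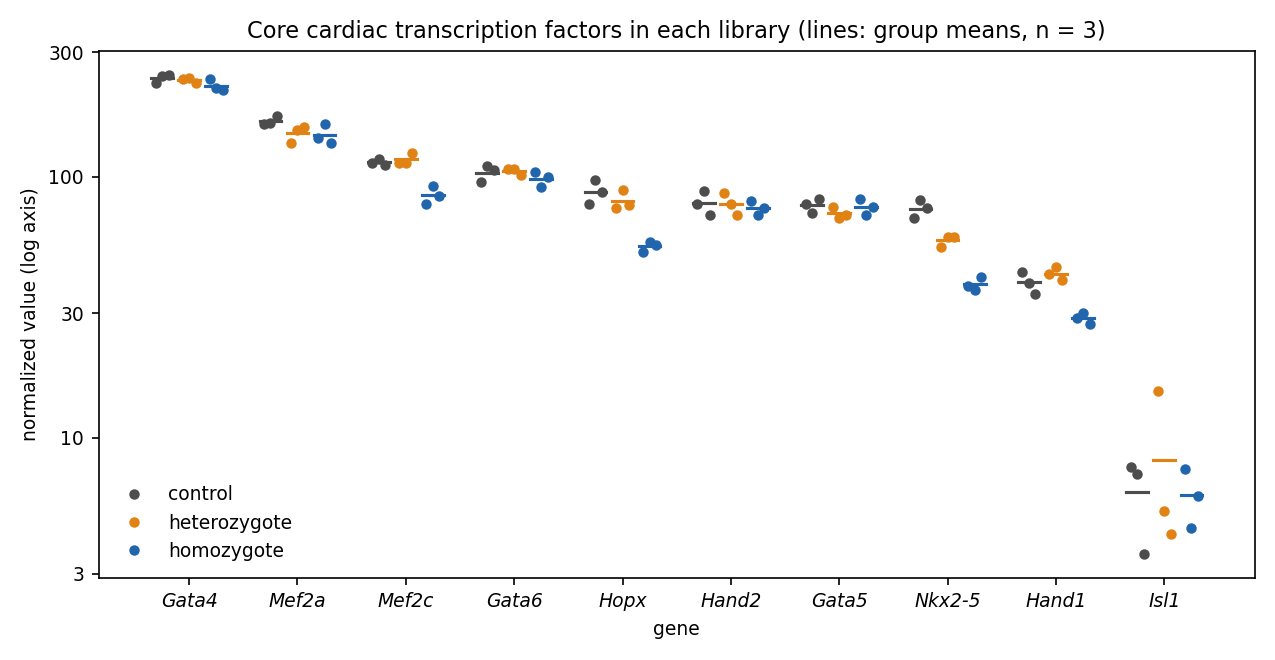
Normalized value (log axis) of each of the 10 genes in the 9 libraries, points for libraries and lines for group means, n = 3 per genotype. Homozygous libraries sit below all controls for *Nkx2-5* (36.8 to 41.4), *Hopx* (51.2 to 56.1), *Hand1* (27.2 to 30.0) and *Mef2c* (78.2 to 92.3), and *Isl1* lies lowest with the widest scatter.

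*Nkx2-5* (ENSMUSG00000015579, chr17:26975609-26978510 of NCBIM37, minus strand), the homeobox gene required for ventricular growth and conduction, had the largest drop of the 10 against controls. Against heterozygotes *Hopx* (-0.58), *Hand1* (-0.56) and *Nkx2-5* (-0.55) fell by nearly the same amount. Its value was 69.2, 81.2 and 75.8 in controls, 53.7, 58.8 and 58.5 in heterozygotes, and 38.3, 36.8 and 41.4 in homozygotes. The 3 genotypes formed 3 separate ranges. Homozygotes held 51.5% of the control mean, a log2 fold change of -0.95 ± 0.078 (SE, n = 3 and 3, limma adjusted p = 7.4e-06). Against heterozygotes the value fell by 0.55 on the log2 scale (SE 0.078, limma adjusted p = 0.00076), to 68.1% of the heterozygote mean. Heterozygotes themselves stood at 75.6% of controls, with a log2 fold change of -0.40 that missed the threshold in limma (adjusted p = 0.097) and passed it in DESeq2 (adjusted p = 0.034). For this gene the Cre allele, whether or not it sits in *Nkx2-5*, and the loss of a *Ctcf* copy cannot be told apart in heterozygotes. Both heterozygotes and homozygotes carry the driver, and whether it contributes to the drop between them was not tested.

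*Hopx* (ENSMUSG00000059325, chr5:77515468-77544186, minus strand) followed. Its value was 78.4, 97.3 and 87.1 in controls, 75.9, 88.9 and 77.9 in heterozygotes, and 51.2, 56.1 and 54.7 in homozygotes. Controls and heterozygotes overlapped, and all 3 homozygous libraries were below both. The fall was 0.69 on the log2 scale against controls (SE 0.086, limma adjusted p = 0.00022) and 0.58 against heterozygotes (limma adjusted p = 0.0010). Homozygotes kept 61.7% of the control mean and 66.8% of the heterozygote mean.

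Promoter sequences were available for 7 of the 10 members (10 RefSeq start sites, build GRCm38.p6, which differs from the build of the expression table). Those of *Nkx2-5* and *Hopx*, the pair with the largest falls against controls, are shown with that of *Hand2*, whose values overlapped between genotypes, so that the letters can be compared. Each runs 5′ to 3′ from 250 bases before the start site to 50 bases into the gene. Capitals mark matches, on either strand, to words bound by the families discussed here: the E-box of HAND proteins with the letters CANNTG, the NK2 word with the letters TNAAGTG, the GATA word with the letters AGATAA, the MEF2 box, the T-box word with the letters GGTGTGA and a CTCF core with the letters AGGNGGC. They are *Nkx2-5* at chr17:26841516-26841815 (minus strand), *Hopx* start site 1 at chr5:77115074-77115373 (minus strand), *Hopx* start site 2 at chr5:77095218-77095517 (minus strand) and *Hand2* at chr8:57320733-57321032 (plus strand).
Nkx2-5: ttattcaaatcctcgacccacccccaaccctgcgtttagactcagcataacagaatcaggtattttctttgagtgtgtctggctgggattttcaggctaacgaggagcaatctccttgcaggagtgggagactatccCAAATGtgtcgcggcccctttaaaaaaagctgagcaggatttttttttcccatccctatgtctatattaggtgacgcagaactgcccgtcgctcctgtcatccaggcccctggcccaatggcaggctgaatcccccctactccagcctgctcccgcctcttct
Hopx start site 1: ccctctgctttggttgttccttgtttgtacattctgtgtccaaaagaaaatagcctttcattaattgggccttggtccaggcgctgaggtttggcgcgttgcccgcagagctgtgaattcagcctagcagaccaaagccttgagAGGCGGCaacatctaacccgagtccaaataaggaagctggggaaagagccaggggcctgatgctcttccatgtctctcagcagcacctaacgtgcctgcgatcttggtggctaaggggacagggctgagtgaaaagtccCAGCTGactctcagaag
Hopx start site 2: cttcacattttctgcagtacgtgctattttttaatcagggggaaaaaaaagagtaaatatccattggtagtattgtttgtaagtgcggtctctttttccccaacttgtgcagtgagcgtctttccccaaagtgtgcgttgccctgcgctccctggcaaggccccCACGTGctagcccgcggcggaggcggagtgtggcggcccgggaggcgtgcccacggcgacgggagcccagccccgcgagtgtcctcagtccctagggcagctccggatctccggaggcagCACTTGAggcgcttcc
Hand2: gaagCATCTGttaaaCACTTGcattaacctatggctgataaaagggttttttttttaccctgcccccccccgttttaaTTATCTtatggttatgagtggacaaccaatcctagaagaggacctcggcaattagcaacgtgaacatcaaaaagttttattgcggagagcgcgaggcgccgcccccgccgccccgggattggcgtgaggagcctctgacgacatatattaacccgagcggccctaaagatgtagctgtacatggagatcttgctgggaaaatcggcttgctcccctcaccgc

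The *Nkx2-5* window held a single match, an E-box at -113 to -108 from the start site. *Hopx* start site 1 held a CTCF core at -106 to -100 and an E-box at 33 to 38, and start site 2 an NK2 word at 34 to 40 that overlaps an E-box, beside another E-box at -86 to -81. *Hand2* held a GATA word at -172 to -167 and 2 E-boxes. Among all 32851 promoters of this length, 72.3% held an E-box, 29.4% the CTCF core, 11.5% the NK2 word, 11.2% the GATA word, 3.98% the T-box word and 3.19% the MEF2 box. The remaining windows were scanned in the same way. *Mef2c*, which fell, had an E-box match at 2 of 3 start sites and a CTCF core at the other, while *Gata5* and *Isl1*, which were not called, also held CTCF cores, and *Mef2a* held a MEF2 box at -2 to 7. These matches describe letters and not binding. The expression table is per gene, so it does not separate the *Hopx* start sites.

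The GATA factors were called in no comparison. *Gata4* (ENSMUSG00000021944, chr14:63817759-63890529, minus strand), a zinc finger partner of NKX2-5 on many cardiac promoters, was 228, 242 and 246 in controls, 236, 240 and 228 in heterozygotes, and 237, 218 and 215 in homozygotes. The homozygous mean was 93.6% of controls, and the 95% interval of the log2 fold change ran from -0.22 to 0.026. *Gata6* (ENSMUSG00000005836, chromosome 18, positions 11052508 to 11085633, plus strand), which acts with *Gata4* in myocardium, ranged from 95.5 to 110 in controls, 101 to 107 in heterozygotes and 91.1 to 105 in homozygotes (interval -0.23 to 0.074). *Gata5* (ENSMUSG00000015627, chr2:180059838-180069404, minus strand), an endocardial and cushion factor, ranged from 72.8 to 82.2 in controls, 69.2 to 76.4 in heterozygotes and 71.5 to 82.1 in homozygotes (interval -0.18 to 0.13). In all 3, the ranges of homozygotes and controls overlapped. Against heterozygotes the intervals were -0.19 to 0.051 for *Gata4*, -0.25 to 0.053 for *Gata6* and -0.072 to 0.24 for *Gata5*. A fall as large as that of *Mef2c* or *Hand1* lies outside these intervals. Antisense genes overlap *Gata5* (1843 bases of *Gm14318*) and *Gata6* (58 bases of *1010001N08Rik*), and the strand setting of the counting is not given in the sources used here. Their values were low, at means of 1.21 and 8.64 in controls, and neither antisense gene was called. An antisense gene also overlaps *Hopx* (7772 bases of *Gm15830*), and it was not analysed here.

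Of the HAND pair, *Hand1* was called and *Hand2* was not. *Hand1* (ENSMUSG00000037335, chr11:57642207-57646320, minus strand), expressed mainly in the left ventricle and outflow tract at this stage, was 43.1, 39.2 and 35.6 in controls, 42.2, 45.0 and 40.0 in heterozygotes, and 28.7, 30.0 and 27.2 in homozygotes. Every homozygous library was below the other 6. The log2 fold change was -0.45 ± 0.087 (SE, n = 3 and 3) against controls (limma adjusted p = 0.0047) and -0.56 against heterozygotes (limma adjusted p = 0.0014). *Hand2* (ENSMUSG00000038193, chr8:59799780-59803314, plus strand), which is needed for the right ventricle and outflow tract, was 78.3, 88.5 and 71.3 in controls, 86.3, 78.5 and 71.2 in heterozygotes, and 81.0, 71.0 and 75.5 in homozygotes. Its groups overlapped throughout, and the interval against controls was -0.26 to 0.13. Taken as a ratio within each library, log2 *Hand1*/*Hand2* was -1.003 ± 0.16 (SD) in controls, -0.88 ± 0.12 in heterozygotes and -1.39 ± 0.14 in homozygotes. The ratio was lower in homozygotes by 0.38 than in controls and by 0.51 than in heterozygotes, with no overlap. An exact permutation test (2-sided) gave p = 0.1 for each, which is the smallest that 3 libraries against 3 can give.

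Of the MEF2 pair, *Mef2c* was called and *Mef2a* was not. *Mef2c* (ENSMUSG00000005583, chr13:83643033-83806684, plus strand), essential for looping and right ventricle formation, was 113, 117 and 111 in controls, 113, 113 and 123 in heterozygotes, and 78.2, 92.3 and 84.3 in homozygotes. All 6 libraries of the other genotypes were above the homozygotes. Its log2 fold change was -0.42 ± 0.068 (SE, n = 3 and 3) against controls (limma adjusted p = 0.0015) and -0.45 against heterozygotes (limma adjusted p = 0.0011). *Mef2a* (ENSMUSG00000030557, chr7:74376049-74517744, minus strand), the MEF2 gene that predominates in the later myocardium, was 159, 160 and 172 in controls, 135, 151 and 155 in heterozygotes, and 140, 160 and 134 in homozygotes. Its log2 fold change against controls was -0.18, with a 95% interval of -0.34 to -0.019 that overlaps that of *Mef2c* (-0.57 to -0.28), and it was not called (limma adjusted p = 0.12) unless homozygote replicate 2, the library at 160, was left out (-0.25, adjusted p = 0.040). Heterozygotes also lay below all controls, at 89.8% of the mean, without being called (limma adjusted p = 0.68). Log2 *Mef2a*/*Mef2c* within libraries was 0.52 ± 0.091 (SD) in controls, 0.33 ± 0.079 in heterozygotes and 0.77 ± 0.088 in homozygotes. That is 0.24 and 0.43 higher in homozygotes with no overlap (exact permutation p = 0.1 for both, again the smallest possible). By contrast log2 *Gata4*/*Gata6* differed by -0.021 from controls (exact p = 0.8) and by 0.025 from heterozygotes (exact p = 0.7). *Gata4*/*Gata5* was lower by 0.074 than in controls (exact p = 0.4). Against heterozygotes this ratio was lower by 0.15 with no overlap (exact p = 0.1, again the smallest possible). Altogether 8 such differences of ratios were computed, and none can reach 0.05.

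**Figure D2:**
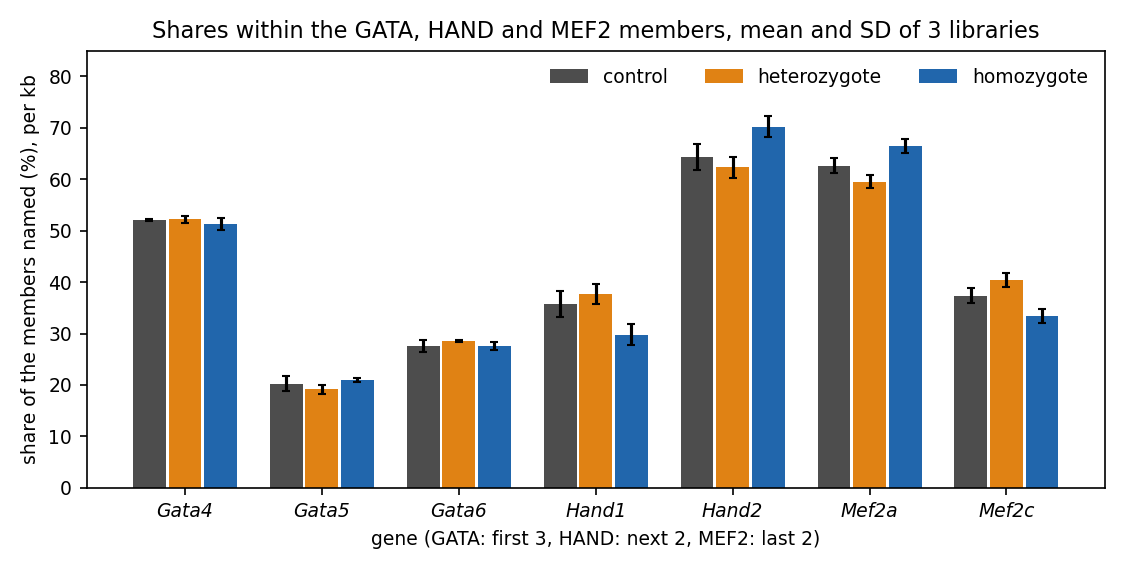
Share of each gene in the summed value per kilobase of the GATA, HAND and MEF2 members, as mean and SD of 3 libraries per genotype, with bars starting at 0. *Hand1* made up 35.7%, 37.7% and 29.8% of the HAND pair in controls, heterozygotes and homozygotes, and *Mef2c* 37.3%, 40.4% and 33.4% of the MEF2 pair, while *Gata4* stayed between 51.3% and 52.2% on average.

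*Isl1* (ENSMUSG00000042258, chr13:117088478-117099896, minus strand), the progenitor gene, was the lowest of the 10 and the least certain. It was read 18 to 153 times per library, and its value was 7.74, 7.27 and 3.58 in controls, 15.1, 5.24 and 4.27 in heterozygotes, and 7.61, 4.49 and 5.99 in homozygotes. A single heterozygous library, that of 9896345 reads, stood above the rest. The 4 second heart field markers found summed to 88.7 in that library and to 69.9 to 87.8 in the other 8. Of these, *Eya1* (5.64 against 0.68 to 4.43) and *Fgf10* (3.29 against 1.37 to 3.09) were highest there, while *Foxc2* (21.4 against 19.3 to 26.3) and *Sema3c* (58.3 against 43.4 to 59.2) were not. Their part in the *Isl1* value was not tested. The interval for homozygotes against controls, -0.83 to 0.83 on the log2 scale, includes changes as large as that of *Hopx*.

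Fold changes of the 10 genes with their intervals are drawn in the plot of the 3 comparisons. For the 4 called genes, the interval against controls ended at -0.78 for *Nkx2-5*, -0.50 for *Hopx*, -0.28 for *Mef2c* and -0.26 for *Hand1* on the side nearest to 0. In the ordered table of all fold changes against controls, 147 of the 14011 genes lay below *Nkx2-5* and 372 below *Hopx*, whereas 1021 and 1128 lay below *Hand1* and *Mef2c*. The median log2 fold change of the 10 was -0.14, beside -0.001 over all genes. It was -0.14 over the cardiomyocyte, -0.16 over the endothelial and -0.37 over the cushion mesenchyme markers. Medians went the other way over the epicardial (0.35) and erythroid markers (0.73).

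**Figure D3:**
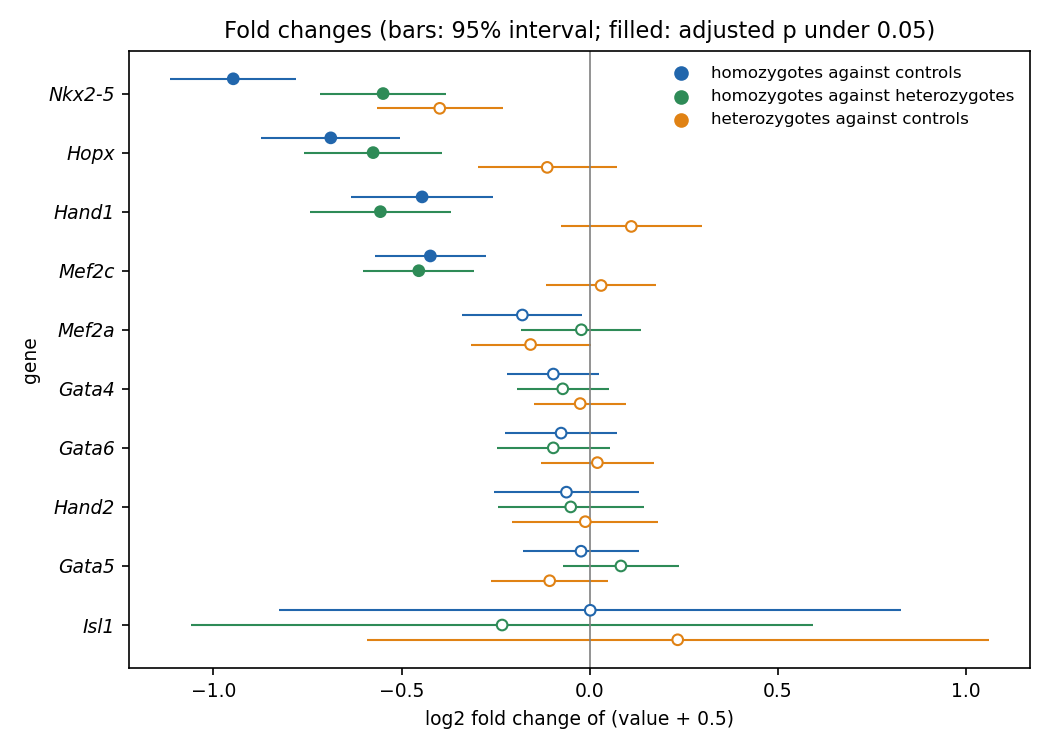
Log2 fold change of (value + 0.5) for each gene in the 3 comparisons, bars for the 95% interval and filled points for an adjusted p under 0.05. Only *Nkx2-5*, *Hopx*, *Hand1* and *Mef2c* have filled points, in both comparisons with homozygotes, and the *Isl1* bars span -1.06 to 1.06.

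Levels per kilobase of exonic sequence placed the genes in order within each genotype. In controls *Gata4* came first at 61.0 ± 2.5 (SD, n = 3), then *Nkx2-5* at 49.4 ± 3.9, *Hopx* at 41.7 ± 4.5, *Hand2* at 35.5 ± 3.9, *Gata6* at 32.5 ± 2.3, *Mef2a* at 25.9 ± 1.1, *Gata5* at 23.8 ± 1.4, *Hand1* at 19.7 ± 1.9, *Mef2c* at 15.4 ± 0.42 and *Isl1* at 2.45 ± 0.90. Ranges of neighbours in that order overlapped from *Nkx2-5* down to *Gata6*, and the others were apart. *Nkx2-5* was ranked 2 in controls, 3 in heterozygotes (37.4 ± 1.9) and 5 in homozygotes (25.5 ± 1.5). In homozygotes the order was *Gata4* (57.1), *Hand2* (33.9), *Gata6* (30.8), *Hopx* (25.7) and *Nkx2-5*, and the ranges of *Hopx*, *Nkx2-5*, *Gata5* (23.4) and *Mef2a* (22.9) ran into each other, as did those of *Hand2* and *Gata6*. In controls 92.2% of 13987 annotated genes lay below *Nkx2-5* per kilobase, and 26.8% below *Isl1*.

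The genes next to these factors on the chromosome were examined as well. Of the 20 nearest genes, 1 on each side, 4 were called in homozygotes against controls, 2 higher and 2 lower, beside 15.2% of all genes. *Hopx* and its neighbour *Spink2*, a serine protease inhibitor gene whose start site lies 96.3 kb away, went in opposite directions. The mean value of *Spink2* was 1.66 ± 0.15 (SD) for controls, 3.43 ± 0.39 for heterozygotes and 9.50 ± 1.5 for homozygotes. It rose against controls by 2.20 ± 0.19 on the log2 scale (SE, n = 3 and 3, limma adjusted p = 1.3e-05). On the other side of *Hopx*, *Srp72*, a signal recognition particle gene, was 112 in controls and 116 in homozygotes and was not called. *Fbxo8*, an F-box gene 770 kb from *Hand2*, rose by 0.55, *Mib1*, a Notch ligand regulator 327 kb from *Gata6*, fell by 0.28 on the log2 scale, and the integrin gene *Itga1*, 1208 kb from *Isl1*, fell by 0.54, while the members beside them were not called. The genes flanking *Nkx2-5* at 60.5 and 75.5 kb, *Bnip1* and *Kifc5b*, were not called in that comparison (log2 fold changes of -0.16 and 0.10). Against heterozygotes 4 of the 20 neighbours were called as well, beside 13.6% of all genes. They were *Spink2* (1.34) and *Fbxo8* (0.47) again, *Lrrc28* next to *Mef2a* (0.45), and *Gm12245*, a pseudogene next to *Hand1*. The last was also the only neighbour called in heterozygotes against controls, beside 0.143% of all genes. It averaged 0.138 in controls, 3.82 in heterozygotes and 0.937 in homozygotes, and reads of a pseudogene can be shared with its parent. Every gene of the table has a value of at least 1 in 3 or more libraries. Without the heterozygotes *Gm12245* could not meet this, so its presence among the neighbours and its calls are not independent.

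**Figure D4:**
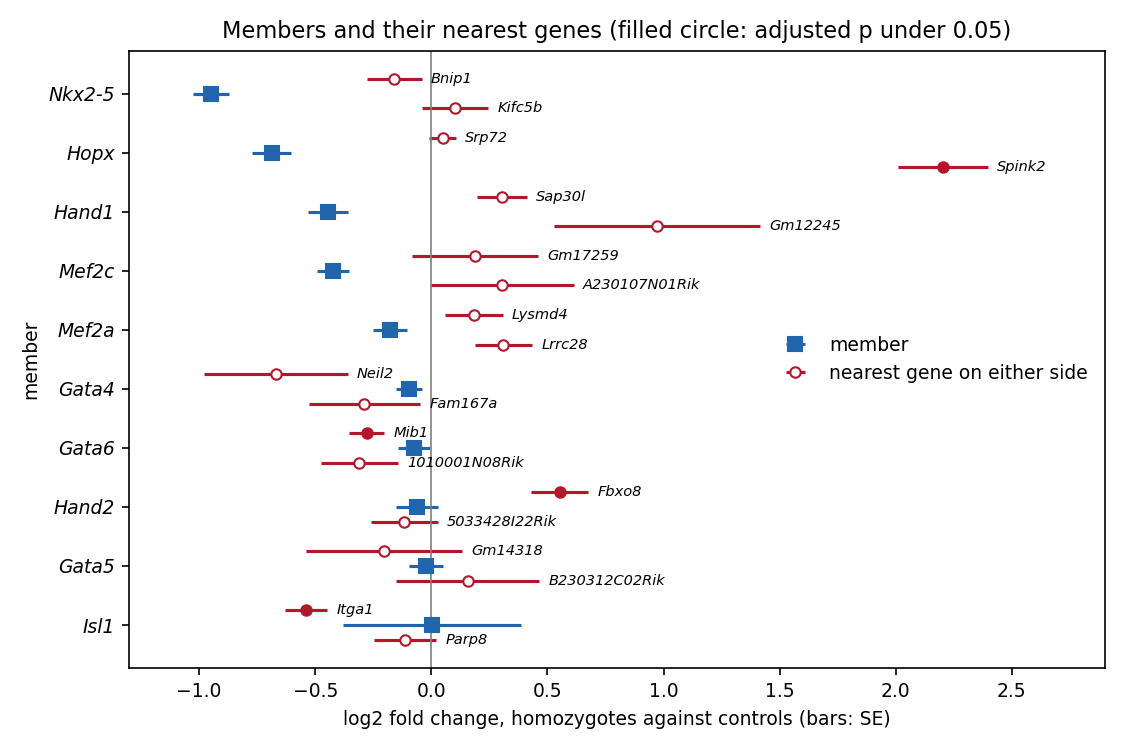
Log2 fold change in homozygotes against controls for the 10 genes (squares) and the nearest gene on either side of each (circles, filled for an adjusted p under 0.05), bars for the SE. *Spink2* lies far to the right at 2.20 beside *Hopx* at -0.69, and the genes flanking *Nkx2-5* sit near 0.

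The genes whose values ran closest to *Nkx2-5* and *Hopx* over the 9 libraries were listed by Pearson's r among the 9847 genes that averaged at least 10 over all libraries. For *Nkx2-5* they were *Scai* (0.977), *Zmynd11* (0.971), *Ctcf* itself (0.965), *Actn1* (0.963) and *Zbtb34* (0.961). *Ctcf* and *Nkx2-5* both stepped down from controls to heterozygotes to homozygotes, and *Scai* did so too at 31.5, 26.8 and 22.3. For *Hopx* they were *Scmh1* (0.974), *Ppp1r3c* (0.974), *Alg5* (0.970), *Dpysl3* (0.970) and *Msto1* (0.968). Of the top genes for *Hopx*, *Alg5* averaged 22.2 in controls, 22.3 in heterozygotes and 16.4 in homozygotes. *Ppp1r3c* (94.1, 85.7 and 59.5) and *Dpysl3* (474, 441 and 322) had lower means in heterozygotes than in controls too. The libraries fall into 3 genotypes, so these coefficients describe the shared step between genotypes.

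Beyond the 10 genes, 33 of 35 other cardiac transcription factors and cofactors were in the table. In homozygotes against controls 8 fell and 1 rose, beside 15.2% of all genes called, with a median log2 fold change of -0.18 beside -0.001 over all genes. Those that fell included *Irx4* (-0.83), a ventricular homeobox gene, *Hey2* (-0.74), a Notch-dependent ventricular repressor, *Myocd* (-0.58), the SRF coactivator of muscle genes, *Prox1* (-0.50), *Casz1* (-0.46), *Tbx20* (-0.42) and *Mef2d* (-0.31). *Tbx18* rose by 0.29. It is also an epicardial marker, and 5 of those 8, itself included, were called higher. The part of the other epicardial markers in its value was not tested. *Hey2* had 68.4, 75.3 and 65.9 in controls and 67.7, 71.8 and 65.2 in heterozygotes against 41.9, 42.1 and 40.7 in homozygotes, with no overlap. *Irx4* was 41.4, 47.0 and 45.4 in controls, 46.2, 47.8 and 49.5 in heterozygotes, and 26.7, 25.8 and 22.0 in homozygotes.

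Against heterozygotes 11 of the 33 fell and 3 rose, beside 13.6% of all genes called. *Tbx20* was no longer called (-0.22). The additional falls were *Tbx3* (-0.45) and *Tbx5* (-0.41), T-box genes of the conduction system and the chambers, *Srf* (-0.24) and the muscle methyltransferase gene *Smyd1* (-0.19). None of these additional falls was called against controls (limma adjusted p = 0.14, 0.21, 0.49 and 0.41), where homozygous and control libraries overlapped. For *Tbx5*, *Srf* and *Smyd1* every heterozygous library lay above all controls. The mean of *Tbx5* was 61.1 in controls, 71.4 in heterozygotes and 53.8 in homozygotes. *Foxh1* (0.70), *Zfpm1* (0.41) and *Tbx18* (0.29) were higher. *Zfpm1* encodes a GATA cofactor known from red cells. Erythroid genes were higher in the same libraries, and their part in the *Zfpm1* value was not tested. *Zfpm2*, the GATA cofactor of the heart, had a log2 fold change of -0.18 in both comparisons and was called in neither. This count of 14 was the least steady, at 8 without the heterozygous library of 7946683 reads or without homozygote replicate 3, and 9 without the heterozygous library of 9896345 or of 4294537 reads or the control library of 9654014 reads. None of the 33 was called in heterozygotes against controls by limma, and 4 had an unadjusted p under 0.05, beside 1032 of all 14011 genes.

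**Figure D5:**
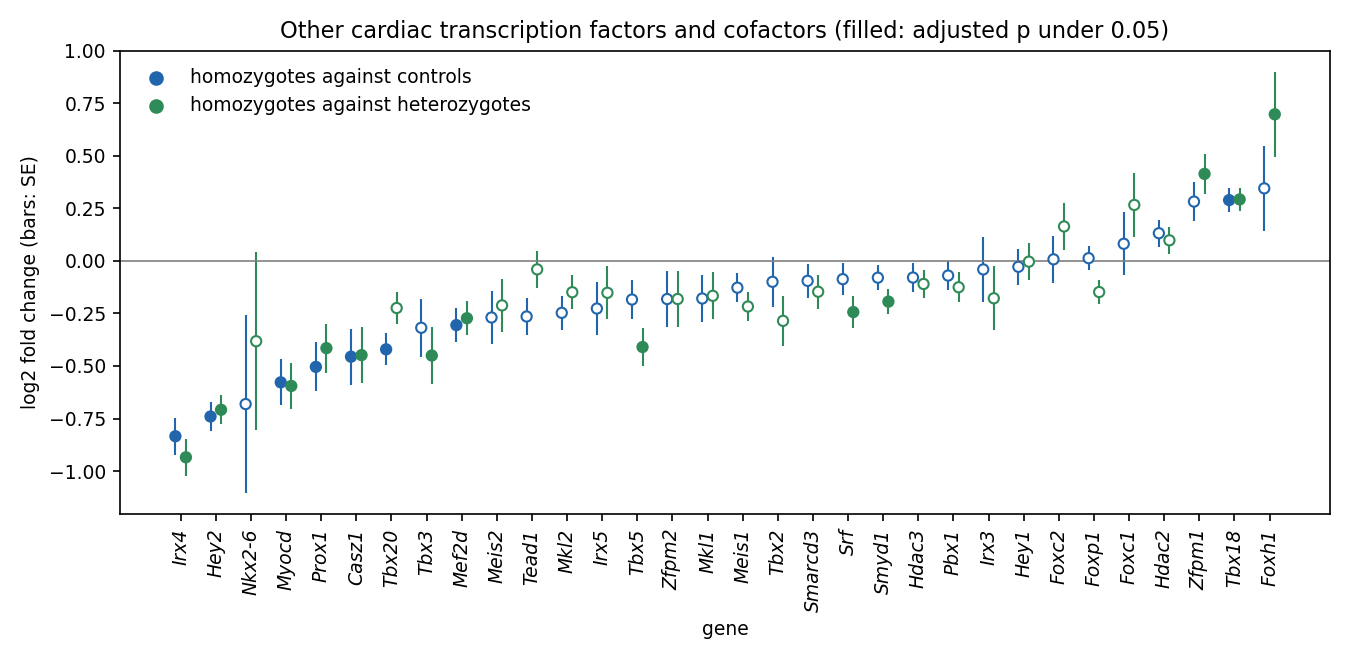
Log2 fold change of 32 other cardiac transcription factors and cofactors in homozygotes against controls and against heterozygotes, ordered by the former, bars for the SE and filled points for an adjusted p under 0.05. *Irx4* and *Hey2* have the lowest called values in both, and *Tbx18* is the one gene called higher in both.

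Genes known as targets of these factors moved unequally. Of 19, 5 were lower and 3 higher in homozygotes than in controls (median log2 fold change -0.23), beside 8.03% lower and 7.19% higher among all genes. *Gja5*, the connexin 40 gene and a classical target of NKX2-5 and TBX5, fell furthest. It was 124, 116 and 167 in controls, 122, 158 and 145 in heterozygotes, and 55.7, 46.6 and 33.1 in homozygotes, with a log2 fold change of -1.59 ± 0.17 (SE, n = 3 and 3, limma adjusted p = 5.4e-05). The ryanodine receptor gene *Ryr2* (-1.13), the connexin 43 gene *Gja1* (-1.05), the sodium-calcium exchanger gene *Slc8a1* (-0.60) and the natriuretic peptide gene *Nppa* (-0.40) were the other falls. *Cav3* (0.42), *Tnni3* (0.33) and *Csrp3* (0.26), which encode proteins of the muscle membrane, the thin filament and the Z-disc, rose. Against heterozygotes 9 of the 19 fell and none rose, beside 13.6% of all genes called. Among cardiomyocyte markers, 4 of 10 were called lower in this comparison (sums of 17067 to 20634 against 20712 to 24244). *Myh6* and *Myh7* count in both lists, and the part of the markers in the result was not tested. The 9 targets that fell against heterozygotes were *Gja5* (-1.67), *Gja1* (-1.29), *Ryr2* (-1.03), *Slc8a1*, *Myh7*, *Myh6*, *Nppa*, *Xirp1* and *Atp2a2*. No target was called in heterozygotes against controls, with 6 at an unadjusted p under 0.05, beside 1032 of all 14011 genes, and 17 of the 19 estimates positive. The cardiomyocyte markers, which share 5 genes with the targets (*Actc1*, *Myh6*, *Myh7*, *Myl7* and *Tnnt2*), had 9 of 10 estimates positive there.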

How the data were processed

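Hearts were pooled by genotype, polyA RNA was extracted with trizol and a column, and libraries were made with an Illumina TruSeq kit and read on a GAIIx. The submitters' processing notes name CASAVA 1.8, cutadapt 1.6.1, RSEM 1.20, Bowtie2 0.12.7 and limma, with NCBIM37 and the Ensembl 65 genes. The deposited values are a normalized read signal per gene, made by the authors: every value equals an integer read number with 0.5 added, divided by the library's effective size. Whole reads were recovered for 126099 of 126099 values (tolerance 0.01), which covers 14011 genes with a value of at least 1 in 3 or more libraries. The control and heterozygote columns are named Het and DH, and the cross described in the labels and the group averages of the study's gene lists set their groups. The name Het resembles the titles of the heterozygous samples (HET), and this conflict was not settled by the labels alone. Single columns could not be matched to sample titles, so those libraries are named by their reads.

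Values were taken as log2(value + 0.5) and fitted by limma 3.58.1 (R 4.3.3) with its mean-variance trend, 9 libraries and 3 groups, and p-values were adjusted by Benjamini-Hochberg over all 14011 genes. A gene was called at an adjusted p under 0.05. Fold changes on this scale understate those of low genes. Ratios within libraries were compared by exact permutation tests. edgeR 4.0.16, DESeq2 1.42.0 on the recovered reads and other settings were alternatives. Nothing says that the pools came from separate litters, so p-values measure only the spread between these libraries, and read numbers cover counting error only. Lengths and positions come from the GENCODE annotation of NCBIM37 (13987 genes matched), and promoters from RefSeq (GRCm38.p6).

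The 10 genes and the lists (other cardiac factors, known targets, and markers of cardiomyocytes, endothelium, epicardium, cushion mesenchyme, second heart field, erythroid cells, macrophages, liver and endoderm, and neural cells) were chosen from general knowledge with earlier results of these data known. Named genes were the 10, the listed factors and targets that were called, the nearest gene in the table on each side, the 5 genes most like *Nkx2-5* and *Hopx* with a mean value of at least 10, *Ctcf*, and genes that overlap one of the 10. *Hey2* and *Irx4* among the other factors and *Gja5* among the targets are given by library because they fell far, and *Zfpm2* is named as the heart's GATA cofactor. These 4, and the 4 second heart field markers named beside *Isl1*, were picked after their values were seen. The named result of 1 listed factor is not reported here, and counts include it. *Tead1*, *Trf* and *Tnnc1* have 2 identifiers each, of which the lower was used.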

Additional observations from a re-analysis of the deposited data

How the results depend on the processing

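Fits were repeated with pseudocounts 4 times lower and higher, only genes that averaged at least 2 or 10, only the 2 groups compared, quantile normalization, median centring, no mean-variance trend, edgeR, DESeq2, removal of the trend with gene length, an adjusted p under 0.01, each library left out and the replicate number as a block. *Nkx2-5*, *Hopx*, *Hand1* and *Mef2c* were called in all 22 settings in both comparisons with homozygotes. Their log2 fold changes against controls ranged from -1.05 to -0.89, -0.76 to -0.61, -0.52 to -0.38 and -0.48 to -0.33, with adjusted p-values of at most 0.0010, 0.0072, 0.023 and 0.018. The number of the 10 genes called was 4 to 5 against controls, 4 in every setting against heterozygotes, and 0 in heterozygotes against controls except with DESeq2, where it was 1. The replicate numbers used here are those in the column names, which for controls and heterozygotes could not be matched to sample titles. These numbers did not pair the libraries (correlation of same-numbered libraries -0.14 to 0.13, of others -0.13 to 0.18). With the replicate block 4, 4 and 0 of the 10 were called, and 8 in place of 14 other factors against heterozygotes.

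No normalization moved the median of all genes by more than 0.1. Over all genes 2133 were called against controls, 858 at an adjusted p under 0.01, 1196 without the trend, 1049 without the control library of 6698891 reads and 1267 without homozygote replicate 3. Against heterozygotes the 1901 became 722 and 1063 in those settings, 1257 without the heterozygous library of 7946683 reads, 1223 without that of 4294537 reads and 1023 without homozygote replicate 3. The 20 in heterozygotes against controls became 13 at the stricter threshold, 10 without the trend, 40 with DESeq2 and 13 without the heterozygous library of 4294537 reads. Known targets fell from 8 to 5 and from 9 to 4 at the stricter threshold and without the trend. Other factors against heterozygotes went from 14 to 5, 6 and, with length removed, 8.

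Signs turned only for genes that were not called, and the cause was not tested. With a library left out, log2 fold changes against controls reached -0.073 to 0.026 for *Gata5*, -0.14 to 0.020 for *Hand2* and -0.32 to 0.18 for *Isl1*. Against heterozygotes they reached -0.12 to 0.018 for *Hand2*, -0.094 to 0.030 for *Mef2a* and -0.56 to 0.29 for *Isl1*, and in heterozygotes against controls -0.037 to 0.061 for *Gata6*, -0.086 to 0.070 for *Hand2*, -0.011 to 0.052 for *Mef2c* and -0.29 to 0.56 for *Isl1*. The *Gata4*/*Gata6* ratio spanned -0.058 to 0.014 and -0.013 to 0.060. Other turns were *Gata5* against controls with quantile normalization (0.0047), *Mef2a* against heterozygotes with length removed (0.036), and *Isl1* against controls with DESeq2 (-0.054), edgeR (-0.091), length removed (-0.050) and a pseudocount of 2 (-0.0059). *Isl1* had 18 to 153 reads per library, the fewest of the 10 genes, and its libraries of 1 genotype differed most. It was left out of the setting with a mean of at least 10.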

Other observations

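Endothelial, macrophage, neural and second heart field markers were also counted. Of 10 endothelial markers, 2 fell and 1 rose in homozygotes against controls, with sums of 1072 to 1300 in homozygotes, 1269 to 1405 in controls and 1222 to 1275 in heterozygotes. Of 7 macrophage markers found, 1 fell (sums of 20.3 to 42.5 in homozygotes, 41.2 to 50.1 in controls and 29.9 to 30.5 in heterozygotes). Of 5 neural markers found, 1 rose, *Tubb3*, and 3 of the 5 estimates were negative. *Tubb3*, named here after its values were seen, was 21.7 to 25.1 in homozygotes, 12.6 to 16.9 in controls and 14.0 to 18.9 in heterozygotes, and the sums of the 5, most of which *Tubb3* makes up, were 30.4 to 32.6, 20.3 to 28.2 and 22.5 to 29.1. None of 4 second heart field markers was called by limma, with 1 at an unadjusted p under 0.05 in each comparison. None of 8 liver and endoderm markers was called in any comparison by limma, with an unadjusted p under 0.05 for 2 when homozygotes were set against controls, for 1 against heterozygotes, and for 7 between heterozygotes and controls. Of the 10 cardiomyocyte markers, 2 fell and 1 rose against controls and 4 fell against heterozygotes.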
